A study of Mus musculus with 7 samples.

Results

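Chromatin accessibility was described at 9 genes of the interleukin 6 (IL-6) and JAK-STAT3 pathway in mouse muscle stem cells (MuSCs), namely Il6, Il6ra, Il6st, Osmr, Lifr, Jak1, Jak2, Stat3 and Socs3. The genes were taken as ligand, receptors, kinases, transcription factor and inhibitor of this pathway. The rule that names them uses no measured value, although earlier results of these data were known when it was set. Each locus was the RefSeq span of the gene on mm10 with 20 kb added on either side. All peaks of the 7 ATAC-seq libraries that overlapped a locus were taken, and peaks of different libraries that overlapped each other were merged into regions. The 9 loci held 97 of 95163 such regions, and 52 of the 97 were called in all 7 libraries, against 53245 of all regions.

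IL-6 is a secreted cytokine that binds its receptor IL-6R (Il6ra) and the shared signalling chain gp130 (Il6st). Oncostatin M and leukemia inhibitory factor act through the related chains OSMR and LIFR, which also pair with gp130. The bound receptors activate Janus kinases, which phosphorylate STAT3, and STAT3 then enters the nucleus and switches on target genes, among them Socs3, whose product shuts the receptor complex off again. In skeletal muscle this pathway is known for driving MuSCs from quiescence towards proliferation and differentiation after injury. ATAC-seq measures where the Tn5 transposase can reach DNA, so it reads whether a promoter or distal element is accessible, and not how much RNA is made from it.

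The 4 Nedd4L-cKO libraries came from Nedd4L fl/fl Pax7 cre/+ mice, in which a Cre recombinase made from the Pax7 locus removes exon 15 of the E3 ubiquitin ligase gene Nedd4l in Pax7-expressing cells and their descendants. The 3 WT libraries, titled Nedd4L-WT, came from mice without the deletion. The gene is still transcribed without this exon, and its product is described as catalytically inactive. The mice were 5 to 6 weeks old. Each library was made from 5000 cells sorted from hindlimb muscle and used without culture, and the study counts as many male mice per genotype as there are libraries. The samples' labels do not tie a library to an animal.

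Between 14.4 and 20.1 M tags (mega) per library remained for peak calling, and each library had between 69302 and 79158 peaks. WT replicate 3 was the shallowest library, and Nedd4L-cKO replicate 4 was the deepest. WT replicate 3 was also the single library assigned to lane 2. The lane was read from the suffix of the name in each peak header and taken as the sequencing lane. Of the MuSC marker genes, 12 of 12, Pax7 and Myf5 among them, had a promoter peak in all 7 libraries, beside 63.4% of all protein-coding genes. Of the immune markers, 0 of 8 had one in any library, and of 21440 protein-coding genes 6719 had none in any library. Of the other markers, 2 of 6 endothelial, 3 of 5 fibro-adipogenic and 3 of 4 muscle fiber genes had a promoter peak in all 7 libraries. Dcn, a fibro-adipogenic marker, was called in 2 Nedd4L-cKO and 3 WT libraries. Ckm, a muscle fiber marker, was called in 3 Nedd4L-cKO and 2 WT libraries. These calls alone therefore do not set MuSCs apart from fibro-adipogenic or muscle fiber cells.

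All 9 genes of the pathway had a promoter peak, meaning a peak within 1 kb of an annotated start, in every library of both genotypes. Of all 21440 protein-coding genes with a known start, 63.4% had a promoter peak in all 7 libraries. The 9 promoters differed in the height of the peak. The height is the pileup, the mean coverage of the peak by extended tags, and it is given here as a percentile among all peaks of the same library, because pileups were not scaled to depth. The mean pileup percentile ran from 56.4 at Il6 to 99.5 at Socs3, and the median of the 9 was 95.9 against 86.7 for the 13594 promoters called in all 7 libraries. In every library Il6 was the lowest and Osmr the next, while Il6ra and Lifr, and likewise Stat3, Il6st and Socs3, changed places between libraries, as did Lifr and Jak1 in Nedd4L-cKO replicate 4.

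To show what kind of sequence lay under the lowest and the highest of these peaks, the 250 bases before the start are given for Il6 and Socs3, and for 2 starts of Lifr, 1 inside a peak and 1 outside any. The sequences are those of RefSeq on GRCm38.p6, written from 5′ to 3′ on the strand of the gene. They lie at chr5:30012864-30013113 (plus strand), chr11:117969367-117969616 (minus strand), chr15:7129322-7129571 (plus strand) and chr15:7140292-7140541 (plus strand). Capitals mark matches on either strand to the letters of a STAT site (TTCNNNGAA), an AP-1 site (TGANTCA), a C/EBP site (TTGCNNAA), a cyclic AMP response element half-site (TGACG) or an NF-kB site.
Il6: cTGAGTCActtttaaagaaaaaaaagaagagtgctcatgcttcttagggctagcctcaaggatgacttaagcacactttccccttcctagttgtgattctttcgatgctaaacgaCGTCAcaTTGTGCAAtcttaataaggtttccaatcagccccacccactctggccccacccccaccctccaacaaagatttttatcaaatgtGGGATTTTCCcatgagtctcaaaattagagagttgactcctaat
Socs3: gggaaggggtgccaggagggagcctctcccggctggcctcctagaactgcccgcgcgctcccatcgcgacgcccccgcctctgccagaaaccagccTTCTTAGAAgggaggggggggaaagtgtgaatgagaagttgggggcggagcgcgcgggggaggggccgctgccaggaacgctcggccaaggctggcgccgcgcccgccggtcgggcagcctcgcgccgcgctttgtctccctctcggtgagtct
Lifr, accessible start: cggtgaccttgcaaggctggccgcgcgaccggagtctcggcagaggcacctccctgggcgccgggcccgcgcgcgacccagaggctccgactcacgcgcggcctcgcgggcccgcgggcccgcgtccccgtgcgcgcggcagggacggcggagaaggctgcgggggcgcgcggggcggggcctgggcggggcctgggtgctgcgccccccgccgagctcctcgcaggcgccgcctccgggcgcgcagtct
Lifr, start without a peak: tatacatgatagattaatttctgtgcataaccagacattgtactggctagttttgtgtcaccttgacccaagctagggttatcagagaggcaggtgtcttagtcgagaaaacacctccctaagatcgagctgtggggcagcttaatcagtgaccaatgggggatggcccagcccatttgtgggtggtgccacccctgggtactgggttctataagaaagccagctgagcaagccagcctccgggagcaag

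The Il6 sequence held 1 match each to the AP-1, C/EBP, half-site and NF-kB letters, with their first bases at positions -249, -128, -135 and -44 from the start. Among 21263 promoter sequences of protein-coding genes, each 300 bases long, these letters occurred in 6.99%, 10.2%, 23.6% and 9.25%. The Socs3 sequence held 1 match to the STAT letters, with its first base at position -154, and such a match was present in 7.69% of all promoter sequences. It was the only match to the STAT letters among the 10 promoter sequences listed for the 9 genes. A match describes letters and was not taken as a bound site. The promoters also differed in CpG content. The ratio of observed to expected CpG was 0.21 at Il6 and 0.19 at the Lifr start without a peak, against 0.77 at Socs3, 1.07 at the accessible start of Lifr and a median of 0.57 over all promoter sequences. The other 6 genes lay between 0.55 (Stat3) and 0.95 (Jak1).

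Il6, the ligand, had the lowest promoter peak of the 9 genes in each of the 7 libraries. Its pileup was 17.8, 17.9, 15.95 and 21.6 in Nedd4L-cKO replicates 1 to 4 and 18.3, 16.1 and 15.5 in WT replicates 1 to 3. As percentiles these were 58.3 ± 4.78 for the Nedd4L-cKO (SD, n = 4) and 53.8 ± 2.90 for the WT libraries (SD, n = 3). The genotypes overlapped, since the lowest Nedd4L-cKO library, at 51.45, was under 2 of the 3 WT libraries. Among the promoters called in all 7 libraries the Il6 promoter stood at percentile 10.9 by height. A second region, chr5:30018075-30019023, began 4.96 kb downstream of the start inside the gene and was also called in all 7 libraries, at a mean pileup percentile of 28.6. Upstream of the start, chr5:30000852-30001699, at 11.4 kb, had peaks in 4 libraries, 2 of each genotype, and chr5:30007061-30008049 had a peak in 1 library.

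**Figure D1:**
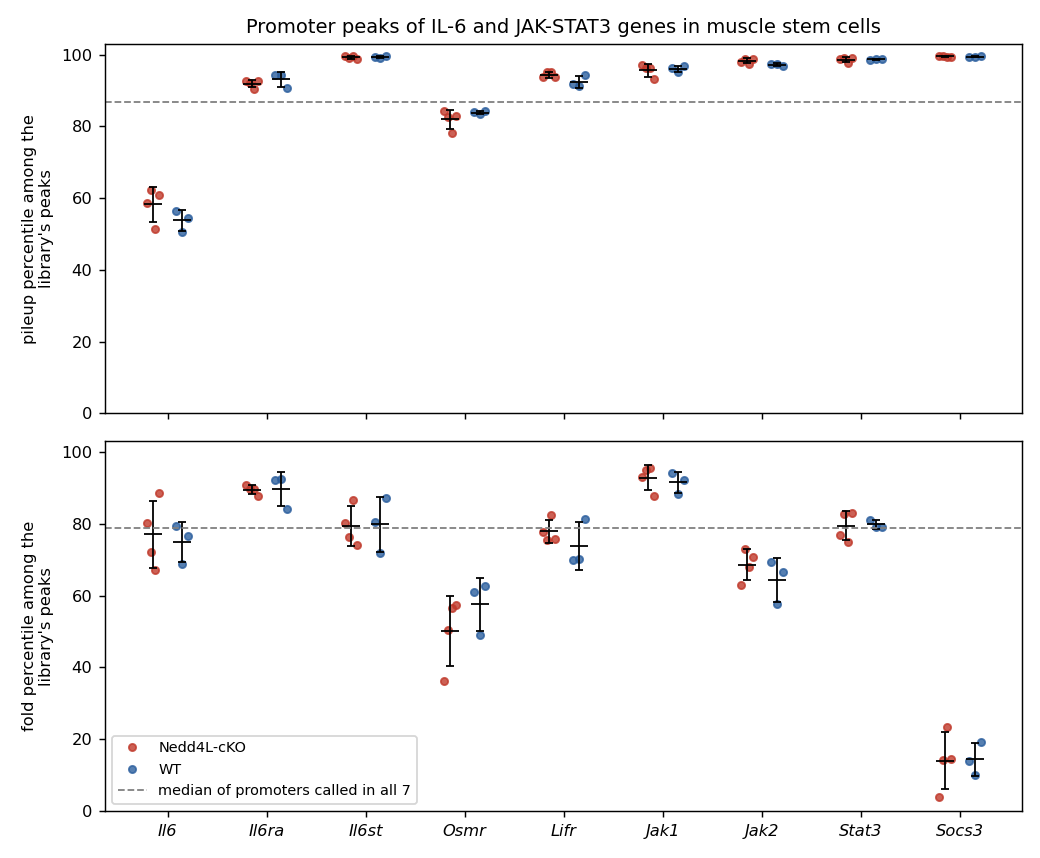
Percentile of the promoter peak among all peaks of its library, by pileup (upper panel) and by fold over local background (lower panel), for the 9 genes. Points are the 4 Nedd4L-cKO and 3 WT libraries, bars the mean and SD, and dashed lines the medians of the 13594 promoters called in all 7 libraries (86.7 and 78.9). Il6 is lowest by pileup, Socs3 is highest by pileup and lowest by fold, and the genotypes overlap for every gene.

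The receptor chains ranged from middling to among the highest peaks. The Il6st promoter (chr13:112464070, plus strand), which serves gp130, had a pileup of 74.5, 62.0, 73.2 and 72.2 in Nedd4L-cKO replicates 1 to 4 and 71.7, 69.1 and 70.7 in the WT replicates. It stood at percentile 99.3 ± 0.373 (SD, n = 4) and 99.4 ± 0.234 (SD, n = 3), so gp130 had one of the highest promoter peaks of these cells in both genotypes. Il6ra, which encodes the IL-6-binding chain, was at 92.0 ± 1.11 (SD, n = 4) and 93.1 ± 2.14 (SD, n = 3). Osmr, the oncostatin M receptor chain, was at 82.02 ± 2.62 (SD, n = 4) and 83.9 ± 0.468 (SD, n = 3), the second lowest of the 9 in every library. Its 2 annotated starts lay under the same peak, and a lower region began 1.80 kb further inside the gene, at chr15:6871902-6872512. That region had a mean percentile of 67.4 by pileup and 7.14 by fold over local background. The highest distal regions of Il6ra and Il6st lay past the ends of the genes, at chr3:89860883-89861891 and chr13:112509279-112510044, with means of 62.8 and 36.4.

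At Lifr, the leukemia inhibitory factor receptor chain, 1 of 3 annotated starts had a peak within 1 kb. The start at position 7129572 of chromosome 15 had a pileup of 48.7, 47.6, 50.6 and 54.5 in the Nedd4L-cKO and 47.6, 45.9 and 46.6 in the WT replicates, which put it at percentile 94.4 ± 0.799 (SD, n = 4) and 92.45 ± 1.62 (SD, n = 3). The starts at 7090610, the outer end of the gene, and at 7140542 were each more than 1 kb from every peak of the 7 libraries. However, chr15:7092215-7093039, called in all 7 libraries, began 1.6 kb downstream of the start at 7090610. Its mean percentile was 45.5 by pileup and 85.5 by fold. Besides the promoter the locus held 18 regions, of which 10 were called in every library. The highest of those outside the promoter, chr15:7118050-7119500, lay 10.1 kb upstream of the accessible start within the annotated gene and had a mean pileup percentile of 76.7.

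Of the kinases, Jak1 had a promoter percentile of 95.7 ± 1.76 (SD, n = 4) and 96.1 ± 0.866 (SD, n = 3), with a pileup between 50.3 and 57.2. Jak2 stood at 98.3 ± 0.673 for Nedd4L-cKO (SD, n = 4) and 97.2 ± 0.346 for WT (SD, n = 3). Its pileup was 61.1, 60.7, 56.9 and 71.1 in Nedd4L-cKO replicates 1 to 4 and 60.0, 58.9 and 52.6 in the WT replicates. The lowest Nedd4L-cKO percentile, 97.46 in replicate 3, lay just under the highest WT one, 97.48 in replicate 1. The Jak1 locus had 19 regions, 16 of them inside the gene outside the promoter, whereas Jak2 had 6. The highest of these by pileup outside the promoter, chr19:29253832-29254110, was called in 5 libraries, at a mean pileup percentile of 81.7. Its mean fold percentile was 2.70, so it rose little over its local background.

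Stat3, the transcription factor of the pathway, had a promoter pileup of 65.4, 61.8, 57.9 and 73.4 in the Nedd4L-cKO and 65.2, 65.7 and 60.8 in the WT replicates. The percentiles were 98.7 ± 0.626 (SD, n = 4) and 98.7 ± 0.0777 (SD, n = 3), with the WT libraries inside the range of the Nedd4L-cKO ones. This peak also covers the start of the predicted gene Gm46295, and the flank of the locus runs into Stat5a, so regions there cannot be assigned to Stat3 alone. Inside the gene, 44.2 kb downstream of the start, chr11:100893427-100895376 was called in all 7 libraries with a mean pileup percentile of 92.8, the highest distal region at Stat3.

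**Figure D2:**
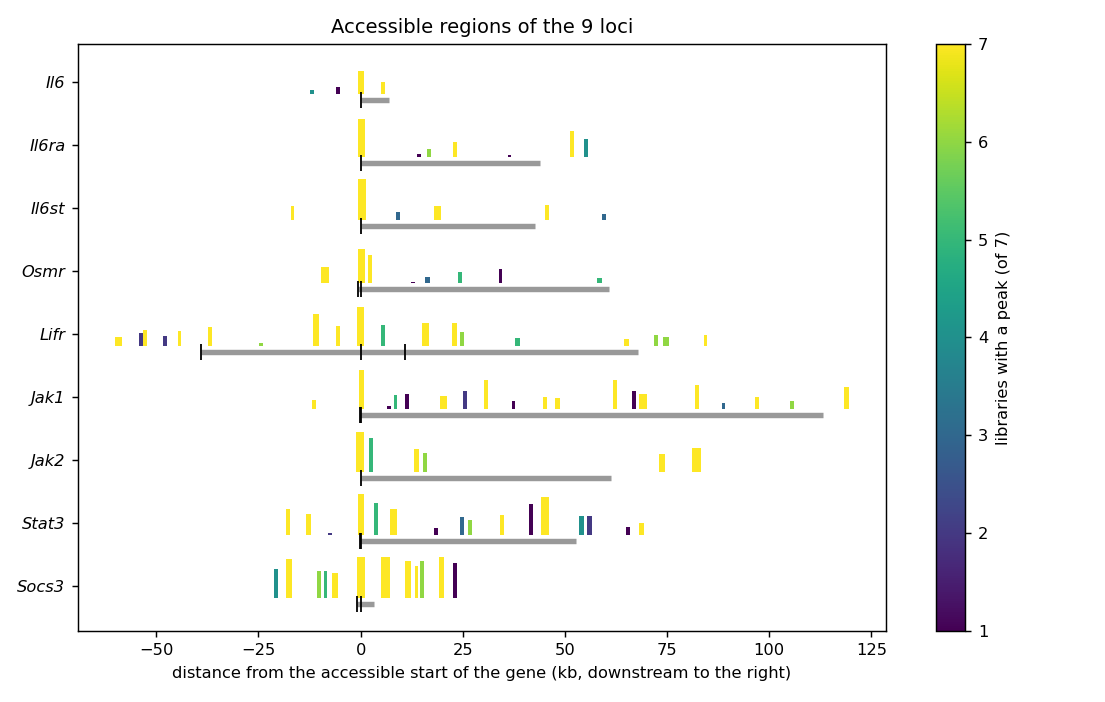
Regions of the 9 loci by distance from the accessible start (kb), with bar height proportional to the mean pileup percentile and colour giving the number of libraries with a peak. Grey lines are the genes and black ticks their annotated starts. The short Socs3 gene sits in the densest cluster, and the outer 2 ticks of Lifr have no peak within 1 kb.

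Socs3, the feedback inhibitor, had the most densely accessible surroundings. Its locus is the shortest of the 9, with a gene of 4258 bp, and held 12 regions, 7 of them called in every library. That is 15.8 shared regions per 100 kb against a median of 3.53 over all 21887 protein-coding loci, and it placed Socs3 at percentile 99.5. Lifr, Jak1 and Stat3 had 7.49, 7.18 and 7.54 shared regions per 100 kb, and the other 5 genes had between 2.96 and 4.83. The flank also holds the promoter of Pgs1 (chr11:117986264-117987493), which was 1 of the 7 shared regions.

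The Socs3 promoter peak had a pileup of 77.9, 67.0, 70.3 and 76.6 in Nedd4L-cKO replicates 1 to 4 and 71.4, 71.1 and 72.7 in the WT replicates. Higher still was chr11:117962153-117964328, 5.04 kb downstream of the start and past the end of the gene, with a pileup of 92.3, 75.4, 78.3 and 90.9 in the Nedd4L-cKO and 80.6, 85.0 and 81.2 in the WT replicates. Its pileup percentile lay between 99.82 and 99.95 in every library, while its mean fold percentile was 6.79. A further region in the same direction, chr11:117948942-117950235, stood at a mean of 99.4 by pileup and 70.7 by fold. By pileup both genotypes thus had 3 regions of the Socs3 locus among the highest peaks of the genome.

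Fold enrichment, the ratio of the pileup to the local background of the same library, gave a different picture of Socs3. By fold its promoter was at percentile 13.9 ± 7.97 for Nedd4L-cKO (SD, n = 4) and 14.4 ± 4.67 for WT (SD, n = 3), the lowest of the 9 genes. The fold was 2.51, 2.83, 3.03 and 2.73 in the Nedd4L-cKO and 2.85, 2.75 and 3.03 in the WT replicates. The local background that these folds imply was 25.2 in the mean over libraries, above the value at 99.5% of promoters called in all 7 libraries, whose median was 7.26. At Il6 it was 3.05, and there the fold percentile of 76.2 exceeded the pileup percentile of 56.4. Such a pattern of high pileup and low fold was present in 7.9% of promoters with a pileup percentile of at least 95, taking a fold percentile under 25 as low. The other 8 genes had mean fold percentiles between 53.3 (Osmr) and 92.3 (Jak1).

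**Figure D3:**
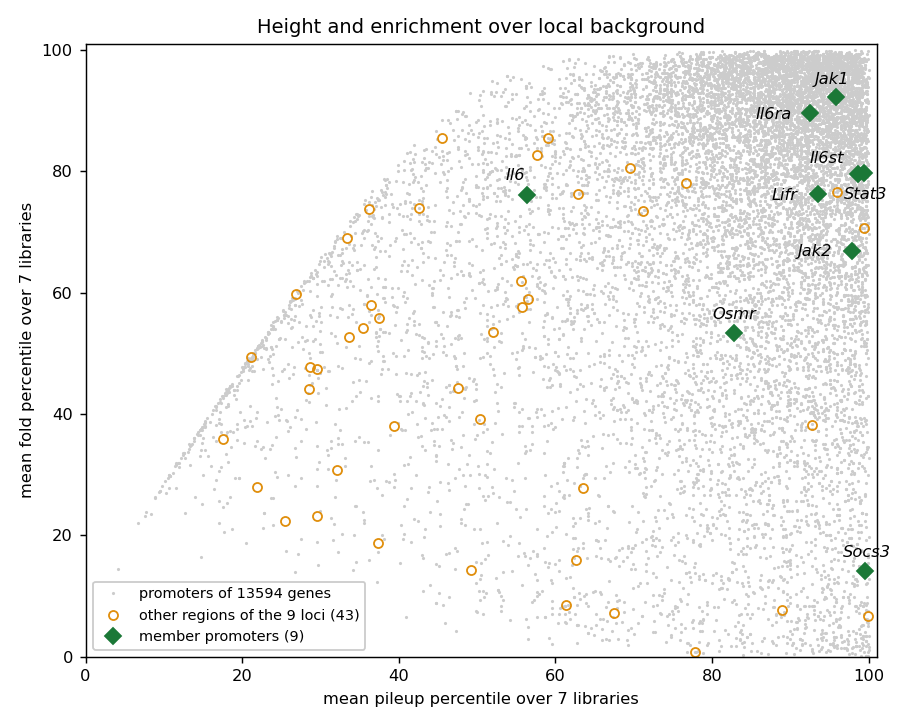
Mean pileup percentile (horizontal) against mean fold percentile (vertical) over 7 libraries, for the promoters of 13594 genes called in all 7 libraries, the 9 promoters described here and the other 43 shared regions of their loci. Socs3 lies at the lower right, with a pileup percentile of 99.5 and a fold percentile of 14.1.

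The question of the design was whether these loci differed between Nedd4L-cKO and WT MuSCs. The number of peaks in the 9 loci together was 73, 77, 71 and 74 in Nedd4L-cKO replicates 1 to 4 and 71, 76 and 72 in the WT replicates. The means, 73.8 ± 2.5 (SD, n = 4) and 73.0 ± 2.65 (SD, n = 3), differed by 0.75 peaks, less than the spread within either genotype (two-sided exact permutation test, p = 0.743, where 35 assignments of the genotype labels allow no p under 0.0286). The sign of this small difference turned with a stricter q, with peaks that hold a narrow peak, and without Nedd4L-cKO replicate 2 (-0.333) or WT replicate 1 (-0.25). The peaks covered 58.0, 59.9, 54.6 and 64.2 kb in the Nedd4L-cKO and 55.6, 60.1 and 56.1 kb in the WT replicates. These were 59.2 ± 4.01 kb (SD, n = 4) against 57.3 ± 2.48 kb (SD, n = 3), a difference of 1.92 kb that was also within the spread (two-sided exact permutation test, p = 0.543). Per locus the widest gap was at Jak1, with 15, 17, 14 and 13 peaks in the Nedd4L-cKO and 13, 13 and 12 in the WT replicates, which overlapped.

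No region of the 9 loci was called in all libraries of a genotype and in none of the other. The counts were 0 of 97 for regions called in Nedd4L-cKO libraries alone and 0 of 97 for WT libraries alone, where the shares over all regions were 0.0694% and 0.082%. The 45 regions that were not shared by all libraries held between 21 and 25 peaks per Nedd4L-cKO library and between 19 and 25 per WT library. Of the 97 regions, 53.6% were called in all 7 libraries and 13.4% in 1 library, beside 56.0% and 14.7% of all regions. The regions nearest to a separation were chr13:112523109-112524149 past the end of Il6st, called in 3 Nedd4L-cKO and 0 WT libraries, and chr3:89857507-89858568 past the end of Il6ra, called in 1 Nedd4L-cKO and 3 WT libraries.

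Shifts in rank were tested in the 52 shared regions by limma, fitted on all 53245 shared regions. For this the fold or pileup of each region was ranked within its library and turned into normal scores, in which 1 unit is 1 SD of the ranks. By fold, 0 of 52 regions passed an adjusted p of 0.05 (limma, Benjamini-Hochberg over all regions), and 0% of all regions did. At an unadjusted p under 0.05 there were 2 of 52, and 3.98% of all regions. By pileup, 0 of 52 passed, again with 0% of all regions, and 3 of 52 had an unadjusted p under 0.05, beside 2.71% of all regions. The differences, Nedd4L-cKO minus WT, had a median of -0.04 by fold and 0.008 by pileup over the 52 regions. By fold 19 had a higher and 33 a lower mean in Nedd4L-cKO, and by pileup 27 and 25.

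The 9 promoters had differences between -0.23 (Osmr) and 0.13 (Lifr) by fold, with standard errors between 0.16 and 0.23. By pileup they lay between -0.10 (Il6ra) and 0.23 (Jak2), with standard errors between 0.09 and 0.15. Each adjusted p was 1.00 (limma). For 6 of the 9, namely Il6, Il6ra, Il6st, Jak1, Stat3 and Socs3, the sign of a difference turned in some alternative, so no direction is given for them. The outermost values kept their sign, but their size varied with the library left out. By fold Osmr was -0.10 without Nedd4L-cKO replicate 1 and -0.34 without WT replicate 2. Lifr was 0.06 without Nedd4L-cKO replicate 3 or WT replicate 1, 0.07 without WT replicate 2 and 0.27 without WT replicate 3. By pileup Il6ra was -0.05 without WT replicate 1, -0.06 without WT replicate 2 and -0.20 without WT replicate 3. Jak2 by pileup lay between 0.13 and 0.29 in the alternatives. A p that misses the threshold does not show that the promoters were equally accessible.

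**Figure D4:**
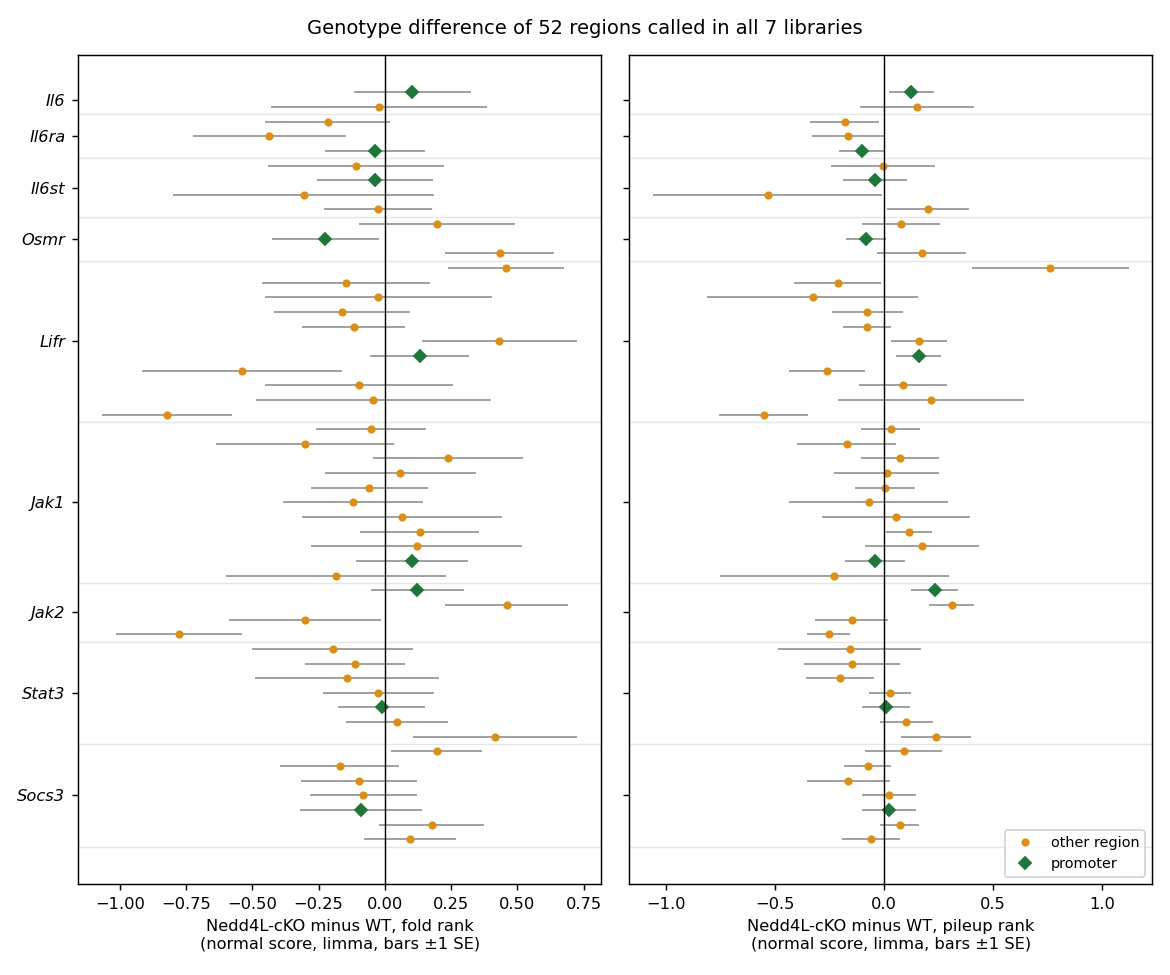
Difference between Nedd4L-cKO and WT in normal-score rank, by fold (left) and by pileup (right), for the 52 shared regions of the 9 loci, with 1 standard error on each side. Diamonds are promoters, and circles are other regions. Promoter differences lie between -0.23 and 0.23. The widest shifts are in the flanks of Lifr and Jak2 by fold, and outside the promoters of Lifr and Il6st by pileup.

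Regions whose percentiles did not overlap between the genotypes were 3 of 52 by fold, beside 4.96% of all shared regions, and 2 of 52 by pileup, beside 3.23%. None of the 5 was a promoter of the 9 genes.

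The region with the lowest unadjusted p by fold was chr15:7213499-7214155 in the 3′ flank of Lifr, 73.0 kb from its nearest start and within the span of Egflam. Its fold percentile was 64.0, 48.1, 34.1 and 47.9 in Nedd4L-cKO replicates 1 to 4 and 83.3, 65.4 and 75.3 in the WT replicates. All 4 Nedd4L-cKO libraries were thus under all 3 WT libraries by fold, whereas by pileup Nedd4L-cKO replicate 1, at 30.2, was above WT replicate 2, at 27.9. The limma difference was -0.82 ± 0.25 (SE) by fold and -0.55 ± 0.20 (SE) by pileup, and the adjusted p was 1.00 in both.

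The next was chr19:29332924-29335012 in the 3′ flank of Jak2, 81.1 kb from its start. It covers the start of Rln1, the relaxin 1 gene, and of the predicted gene Gm52390, so it is a promoter of other genes. Its fold percentile was 87.8, 72.5, 72.3 and 85.6 in the Nedd4L-cKO and 94.0, 89.4 and 97.0 in the WT replicates. The libraries of the 2 genotypes did not overlap by fold, whereas by pileup they did. The limma difference was -0.78 ± 0.24 (SE) by fold and -0.25 ± 0.10 (SE) by pileup, each with an adjusted p of 1.00. Most of this region lies outside the Jak2 locus, which ends at position 29333095.

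A region inside Jak2 went the other way. It is chr19:29264830-29266179, 13.0 kb downstream of the start, and its pileup percentile was 58.8, 59.9, 54.3 and 67.9 in the Nedd4L-cKO and 51.4, 45.4 and 52.4 in the WT replicates. All 4 Nedd4L-cKO libraries were above the 3 WT libraries, with a limma difference of 0.31 ± 0.10 (SE) by pileup and an adjusted p of 1.00. By fold they overlapped, since Nedd4L-cKO replicate 3, at 44.8, was under WT replicates 1 and 3.

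Next by fold came chr15:6882069-6884084, 7.1 kb upstream of Osmr. Its fold percentile was 66.4, 69.8, 61.7 and 51.9 in the Nedd4L-cKO and 50.3, 48.4 and 42.4 in the WT replicates. All 4 Nedd4L-cKO libraries were above the 3 WT libraries by fold, and the limma difference was 0.43 ± 0.21 (SE) with an adjusted p of 1.00. By pileup the genotypes overlapped, with a limma difference of 0.17 ± 0.20 (SE). The remaining region without overlap was chr4:101234044-101235083 inside Jak1, where the lowest Nedd4L-cKO pileup percentile, 72.34, was just above the highest WT one, 72.33. The widest difference by pileup over the 52 regions was 0.76 ± 0.36 (SE) at chr15:7069442-7071266 in the 5′ flank of Lifr, a region named after its value was seen, also with an adjusted p of 1.00.

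**Figure D5:**
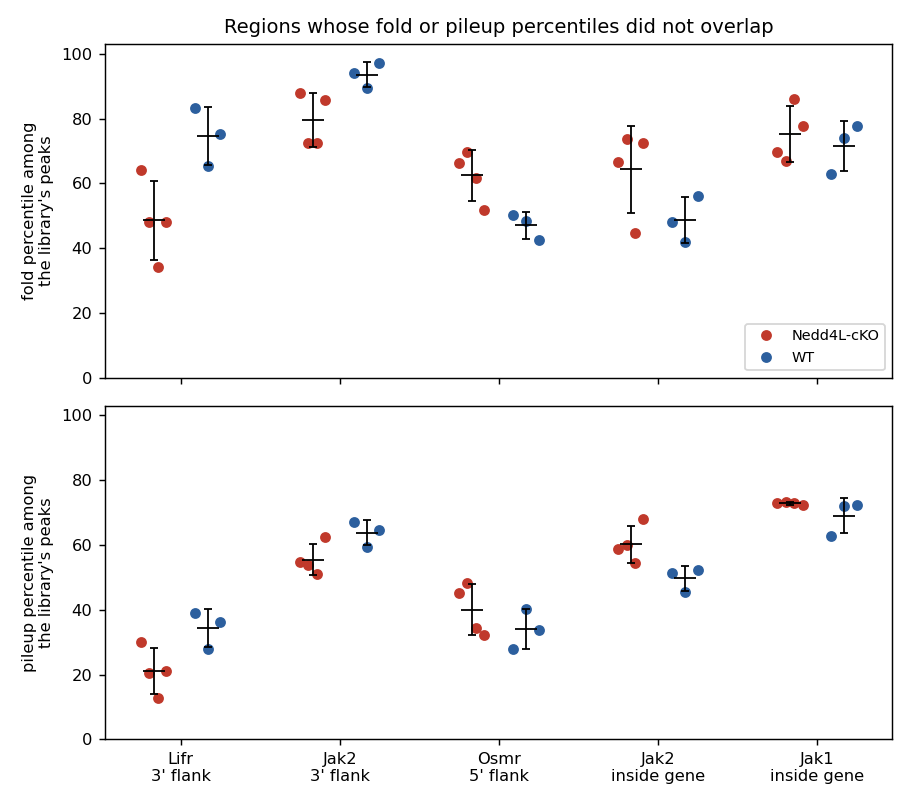
Fold percentile (upper panel) and pileup percentile (lower panel) in each library of the 5 regions whose percentiles did not overlap between the genotypes by at least 1 of the measures, with means and SDs. The 3′ flank region of Lifr lies between 34.1 and 64.0 by fold in the 4 Nedd4L-cKO libraries and between 65.4 and 83.3 in the 3 WT libraries.

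Beyond the 9 genes, 38 of 46 other genes of the pathway had a promoter peak in all 7 libraries, beside the 63.4% of all protein-coding genes. Among ligands these were 3 of 7, namely Il11, Ctf1 and Clcf1. Osm (oncostatin M) and Il27 had no promoter peak in any library, Lif (leukemia inhibitory factor) had one in 1 WT library, and Cntf (ciliary neurotrophic factor) in 4 Nedd4L-cKO and 2 WT libraries. All 4 other receptor chains and both other kinases, Jak3 and Tyk2, were called in all 7 libraries. So were 5 of 6 other STAT genes, while Stat4 had a promoter peak in 3 Nedd4L-cKO and 1 WT libraries.

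Of the other inhibitors, 12 of 13 had a promoter peak in all 7 libraries, and Ptpn6, the phosphatase SHP-1 known from blood cells, had none in any. Among genes known as STAT3 targets, 12 of 14 were called in all 7 libraries. Bcl3 was called in 4 Nedd4L-cKO and 2 WT libraries, and Ccnd1, tested only at the outermost end of its RefSeq span, in none. Of these 12 targets, 10 had a mean pileup percentile of at least 95, beside 20.7% of all promoters called in all 7 libraries. A fold percentile under 25 was found in 7 of the 10, namely Myc, Mcl1, Pim1, Junb, Fos, Cebpb and Bcl6, beside 7.9% of all promoters of that height. Among the other inhibitors Socs1 and Socs2 also had both, out of 4 of that height. The pattern was not particular to the pathway. Of 4 MuSC marker promoters of that height, 3 had a fold percentile under 25, namely Cdh15, Sdc4 and Cxcr4.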

How the data were processed

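The authors profiled 5000 sorted MuSCs per library by ATAC-seq. Genotypes were taken from the labels, which give 4 Nedd4L-cKO and 3 WT samples. The submitters' processing notes name Trimmomatic 0.39, BWA 0.7.17, SAMtools, Picard 2.26.3 and MACS2 2.2.7.1, with mm10, and the study's methods state a mapping quality filter of 30. Per the file headers, broad peaks were called in each library alone, without control, from tags of 151 bp shifted by -100 bp and extended to 200 bp, with a local background over 10000 bp and 1 tag per position and strand. In the deposited lists the pileup is a signal, the coverage of extended tags, not scaled to depth, and the fold enrichment is a ratio to the local background. The p-value and q-value deposited for each peak are given as -log10. The gapped lists deposited by the authors mark narrow peaks inside broad ones, which was used for 1 alternative, and the broad lists were not used.

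Both measures depend on depth and on separate MACS2 runs, so libraries were compared by ranks. Percentiles run from 0 to 100 among the peaks of a library on chromosomes 1 to 19, X and Y. The local background implied by a fold was (pileup + 1) / fold - 1. Gene spans and promoter sequences came from RefSeq on GRCm38.p6, the assembly of mm10. A promoter peak overlapped a start ± 1 kb by at least 1 bp. Starts were those of the RefSeq promoter sequences, which covered 9 of the 9 genes, and the outer end of the span, with strands of genes that had no such sequence taken from GENCODE by symbol. No exon annotation on mm10 was used, so regions are placed inside or outside genes only. Normal scores of ranks were tested by limma 3.58.1 in R 4.3.3 (lmFit and eBayes, all 7 libraries, no covariate). Single values per library were tested by exact permutation over 35 assignments of the labels. The limma step alone was tested on simulated data, with known shifts added to 200 of 53245 regions. A shift of 1 unit was recovered in 60.5% of them by fold and 100% by pileup, and a shift of 1.5 in 99.5% by fold. Smaller shifts were not simulated. The 52 regions differed by -0.823 to 0.459 by fold and by -0.551 to 0.763 by pileup. No peak had the same ends and pileup in any 2 libraries, so no peak list was a copy of another. Whether any 2 libraries shared an animal was not tested. Each library was counted as 1 replicate.

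The members and gene lists were chosen with earlier results of these data known. The text names all 9 genes, the highest distal region of each locus, the 3 regions with the lowest unadjusted p by fold and by pileup, and other pathway genes not called in all libraries. Alternatives were stricter peaks, equal peak numbers, spans without flanks, other TSS windows, other limma settings, a replicate block, lane 1 alone and each library left out. Python 3.11.15, numpy 2.4.6, pandas 2.3.3, scipy 1.17.1 and matplotlib 3.10.9 were used.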

Additional observations from a re-analysis of the deposited data

How the results depend on the processing

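The 9 promoters remained 9 under stricter peaks, equal peak numbers, narrow-holding peaks, a 2.5 kb window, a 100 bp overlap, RefSeq starts alone (an alternative chosen after seeing the data) and each library left out, and were 8 with the outermost start alone, which loses Lifr. The count of regions past limma was 0 in every alternative by either measure. Regions without overlap were 3 by fold and 2 by pileup, the latter added after seeing the data. Separating regions ranged from 0 to 1 when a library was left out: without Nedd4L-cKO replicate 1 the region past Il6st and without Nedd4L-cKO replicate 2 the region past Il6ra separated the genotypes, as did 0.352% and 0.342% of all regions. The difference in peaks became -1.83 with a -log10 q of at least 5 and -0.917 with peaks that hold a narrow peak, and ranged from -0.333 (without Nedd4L-cKO replicate 2) to 2.25 when a library was left out. The difference in kb covered stayed positive, from 0.212 to 3.44, in every alternative, with no exact permutation p under 0.2.

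The labels give the genotypes shared replicate numbers but no shared litter or day. Deviations of same-numbered libraries correlated at -0.123, 0.033 and -0.122 by fold and -0.218, 0.098 and -0.241 by pileup. Libraries with different numbers were not compared in this way, so these values cannot exclude a shared litter or day. The libraries were treated as unpaired. With a replicate block the difference was 0.667 peaks and 0.242 kb, 0 regions passed limma, and 4 of 52 regions by fold and 1 of 52 by pileup had an unadjusted p under 0.05, beside 4.02% and 2.73% of all regions. Promoter rank differences that turned were small. Under the replicate block they were -0.0353 (Il6), 0.0144 (Il6ra) and 0.0581 (Il6st) by fold and 0.0422 (Il6st), 0.0632 (Jak1) and -0.0172 (Stat3) by pileup. With lane 1 alone Il6st was 0.113 by fold and 0.0444 by pileup, with centred log2 values it was 0.0041 by pileup, and with log2 tags as covariate Jak1 was 0.0074 by pileup. With each library left out the ranges by fold were -0.0353 to 0.218 (Il6), -0.196 to 0.053 (Il6ra), -0.190 to 0.113 (Il6st), -0.007 to 0.238 (Jak1), -0.0581 to 0.0353 (Stat3) and -0.230 to 0.0757 (Socs3). By pileup they were -0.121 to 0.0444 (Il6st), -0.107 to 0.0632 (Jak1), -0.0284 to 0.0864 (Stat3) and -0.0368 to 0.126 (Socs3). The cause was not tested. The other 14 of 24 differences named kept their sign, among them the 6 with the lowest p. Those 6 were picked by p from these same libraries, so their kept sign is no independent support. WT replicate 3 is the single library of lane 2, so lane and genotype can be compared only by leaving it out.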
